A study of Homo sapiens with 6 samples.

Results

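U1 small nuclear RNA (snRNA) and its variant genes are represented by 4 of the 142 rows of a table of nascent small RNA 3′ ends from human cells with and without the exonuclease TOE1. The members were taken by name: the row RNU1 WT and every row whose gene name starts with RNVU1, which are RNVU1-31, RNVU1-27 and RNVU1-19. The cells are a HEK 293T-REx line, of human embryonic kidney origin, whose TOE1 protein is fused to a degron, a tag that has it broken down once auxin is added. Of the 6 libraries, 3 are labelled TOE1+ (TOE1-present) and 3 TOE1- (TOE1-depleted, incubated with 600 µM indole-3-acetic acid for 8 hours). All cells were of this TOE1-degron line and were given 0.2 mM ethynyl uridine for 8 hours, so that RNA made in that time could be captured. Any mock treatment of the TOE1-present cells, and whether the line is a single clone, are points that the labels do not give. Adaptor AG11 was ligated to the 3′ ends of TOE1-depleted replicates 2 and 3, and AG10 to those of the other 4 libraries. Outside replicate 1, adaptor and TOE1 therefore cannot be told apart.

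U1 snRNA is the RNA of the spliceosomal particle that pairs with the 5′ splice site of introns. It is transcribed by RNA polymerase II and cut by the Integrator complex some bases downstream of its mature end. The precursor receives a ring of Sm proteins and a trimethylated cap, and 3′ exonucleases, TOE1 among them, trim its tail to the mature end. Genes named RNVU1 are variant U1 genes, copies that can differ from U1 at scattered bases, and some of them are transcribed in human cells.

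The sequences come first, since they set what each row can tell. The row RNU1 WT merges 10 gene models: RNU1-1 to RNU1-4, RNVU1-7, RNVU1-18, RNVU1-28 and RNVU1-29 on chromosome 1, and RNU1-27P and RNU1-28P on chromosome 14. On hg38 with GENCODE 44, RNU1-1 lies at chr1:16514122-16514285 on the minus strand and is annotated as an snRNA gene of 164 nt. RNVU1-31 lies at chr1:145465617-145465780 on the minus strand with 164 nt, RNVU1-27 at chr1:148522601-148522765 on the plus strand with 165 nt, and RNVU1-19 at chr1:120850819-120850985 on the minus strand with 167 nt. Each is annotated as an snRNA gene, and 4 of the models in the U1 row are themselves named RNVU1. GENCODE 44 lists 31 models named RNU1-1 to RNU1-4 or RNVU1, of which 11 are among the identifiers of these 4 rows. The gene of RNU1-1 is printed with its Sm-site letters in capitals. The variants follow, with capitals at every base that is substituted or inserted relative to RNU1-1.
RNU1-1: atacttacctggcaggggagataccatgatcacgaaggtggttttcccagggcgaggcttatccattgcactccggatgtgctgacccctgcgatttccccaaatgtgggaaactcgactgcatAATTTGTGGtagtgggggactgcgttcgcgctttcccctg
RNVU1-31: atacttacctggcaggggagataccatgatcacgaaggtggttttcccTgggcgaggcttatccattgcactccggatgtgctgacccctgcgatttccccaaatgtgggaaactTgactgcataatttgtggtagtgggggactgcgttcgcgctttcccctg
RNVU1-27: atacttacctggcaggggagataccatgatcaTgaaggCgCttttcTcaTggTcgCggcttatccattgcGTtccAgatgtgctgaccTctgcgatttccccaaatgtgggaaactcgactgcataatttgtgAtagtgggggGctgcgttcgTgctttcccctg
RNVU1-19: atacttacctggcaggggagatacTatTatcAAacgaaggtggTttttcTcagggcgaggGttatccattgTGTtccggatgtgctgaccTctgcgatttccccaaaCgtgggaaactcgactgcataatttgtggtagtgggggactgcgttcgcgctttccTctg

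Of the 10 models in the U1 row, 8 have the sequence of RNU1-1 over its whole length, so their reads cannot be parted. RNVU1-28 differs by G37T and RNVU1-7 by T150C, with positions counted from 1 at the 5′ end of RNU1-1 and the base of RNU1-1 written first. RNVU1-31 differs from RNU1-1 by A49T and C116T alone (98.8% identity), and its last 48 bases are those of RNU1-1. A read that starts inside those bases and ends at the mature end cannot tell RNVU1-31 from U1; the way such reads were placed is not given in the sources used here. RNVU1-27 has 13 substitutions and 1 inserted base (91.5% identity), and RNVU1-19 has 10 substitutions and 3 inserted bases (92.2% identity). The stretch ACTTACCT near the 5′ end, which holds the bases that pair with 5′ splice sites, was present in all 13 models. The Sm-site letters AATTTGTGG were found at positions 125 to 133 of RNU1-1 and RNVU1-31 and at 128 to 136 of RNVU1-19, while RNVU1-27 carries G133A at the last of them. Near the 3′ end RNVU1-19 differs from RNU1-1 by C161T, and RNVU1-27 by A143G and C153T.

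**Figure D1:**
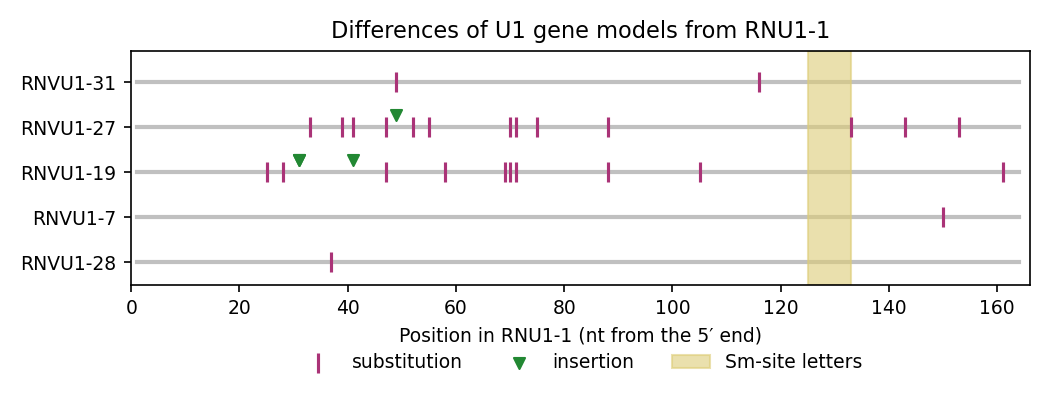
Positions at which 5 U1 gene models differ from RNU1-1, by position in RNU1-1 (nt from the 5′ end); bars are substitutions, triangles insertions, and the shaded band the Sm-site letters at positions 125 to 133. RNVU1-31 has 2 substitutions, both upstream of the band, and 2 bases inserted at position 31 of RNVU1-19 share a triangle.

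The bases downstream of the mature end matter for a trimming assay, because an end that lies past position 0 is read against them. The first 50 bases downstream are printed for 8 models, with the letters of the 3′ box in capitals where they were found. The 3′ box is the element that directs the Integrator cut of snRNA precursors. It was searched on the gene's strand as GTTTAAANNNAGA, also with 1, 2 or 3 further bases of any kind after GTTT, where N is any base.
RNU1-1: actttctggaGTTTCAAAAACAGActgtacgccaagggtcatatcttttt
RNU1-2: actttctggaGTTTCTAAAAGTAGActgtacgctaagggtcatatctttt
RNVU1-18: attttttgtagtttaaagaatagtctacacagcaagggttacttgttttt
RNVU1-7: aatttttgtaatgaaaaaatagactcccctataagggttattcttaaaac
RNU1-27P: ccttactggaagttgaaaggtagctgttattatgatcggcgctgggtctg
RNVU1-31: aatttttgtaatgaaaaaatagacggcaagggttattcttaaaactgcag
RNVU1-27: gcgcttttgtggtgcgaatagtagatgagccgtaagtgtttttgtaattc
RNVU1-19: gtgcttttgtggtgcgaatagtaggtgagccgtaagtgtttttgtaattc

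These letters were found after 4 of the 10 models in the U1 row, RNU1-1 to RNU1-4, each starting 11 bases downstream of the mature end. They were not found in the 50 bases after RNVU1-31, RNVU1-27 or RNVU1-19. Of 1901 snRNA models of GENCODE 44, 27 (1.42%) had them in the same window. The first downstream base was A in 8 of the 10 models of the U1 row. After those copies, an A added at the mature end reads the same as the A that the genome holds there. RNVU1-31 and RNVU1-7 continue with AA and share their first 24 downstream bases, although RNVU1-7 is counted in the U1 row and RNVU1-31 in a row of its own.

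U1 took 9645 reads in the 6 libraries together, RNVU1-31 1313, RNVU1-27 25 and RNVU1-19 20. The libraries held 32813 to 75353 reads over all rows, and the U1 family took 2.81% to 5.06% of them. RNU1 WT had 1492, 1082 and 919 reads in the TOE1-present libraries and 2007, 1466 and 2679 in the TOE1-depleted ones. RNVU1-31 had 326, 161 and 161 against 248, 162 and 255. RNVU1-27 had 9, 1 and 3 reads against 5, 2 and 5, and RNVU1-19 had 7, 2 and 1 against 4, 3 and 3. The lowest library thus held 919 reads of U1 and 161 of RNVU1-31, whereas RNVU1-27 and RNVU1-19 rest on 1 to 9 reads per library. No TOE1 mRNA row exists among these small RNAs, and the loss of TOE1 was not checked here.

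Whether the libraries come from separate cultures is not given in the sources used here, so the p-values rest on a spread between libraries that may be technical.

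With TOE1 present, the nascent ends of U1 had their median at the annotated end and their mean past it. In the authors' deposited table the control end of RNU1 WT had a median of 0 nt and a mean of 1.60 nt, position 0 being read as the annotated 3′ end and positive positions as downstream. Per the header, end values cover positions -10 to 50, and it is not said whether an untemplated tail counts in them. For RNVU1-31 the deposited median was 1 nt and the mean 2.23 nt, and for RNVU1-27 they were 3 and 2.15 nt. RNVU1-19 stood apart, with a median of -8 nt and a mean of library means of -7.45 nt. The TOE1-present libraries held 7, 2 and 1 of its reads, so in this mean the library with 1 read weighs as much as that with 7. That places its few reads upstream of the annotated end, close to the lower bound of the counted positions. Among 90 rows with at least 100 reads, 35 had a higher control mean than RNU1 WT and 20 a higher one than RNVU1-31, against a median of 1.14 nt, so neither row was extreme before depletion.

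The main comparison is the 3′ end with and without TOE1. In TOE1-depleted cells the genome-templated end of U1 lay 0.888 nt further downstream (95% interval 0.695 to 1.08 nt, n = 3 libraries per group) in the authors' deposited table, with an adjusted p of 0.009999 (Benjamini-Hochberg over the deposited p of 139 RNAs). The genome-templated end is where the read leaves the genome sequence, so added bases that match the genome would count in it. RNVU1-31 stood at 0.780 nt (0.158 to 1.40 nt), with an unadjusted p of 0.0253 in the authors' deposited table and an adjusted p of 0.284. Its value is close to that of U1, but its error, 0.224 nt (SE), is larger than the 0.0695 nt of U1, and it did not pass. On pooled reads, which takes reads and not libraries as the unit, the Kolmogorov-Smirnov p of the authors' deposited table did call RNVU1-31 (adjusted p = 2.256e-05). By the authors' deposited table RNVU1-27 stood at 0.407 nt (-1.43 to 2.25 nt) and RNVU1-19 at -1.44 nt (-4.73 to 1.86 nt), and each of these intervals holds both 0 and the value of U1. Thus 1 of the 4 rows was called, where 2.16% of the 139 RNAs were, and 2 of 4 had an unadjusted p under 0.05, where 12.9% did. The difference between U1 and RNVU1-31 could not be tested, since the rows share libraries and the table gives no end position per library.

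With the tail counted, the total end of U1 lay 1.35 nt further downstream (0.956 to 1.75 nt, adjusted p = 0.0321 from the authors' deposited p, n = 3 libraries per group). Of the 4 rows 1 was called, where 2.16% of the RNAs were, and limma's moderated test on the recovered errors did not call U1 (adjusted p = 0.0971). At an unadjusted p under 0.05 the count was 1 of 4, where 7.91% of the RNAs lay. By the authors' deposited table RNVU1-31 had 0.969 nt (-0.315 to 2.25 nt, adjusted p = 0.557), RNVU1-27 0.685 nt (-0.953 to 2.32 nt) and RNVU1-19 0.00794 nt (-3.49 to 3.50 nt). For U1 the templated part made up 65.7% of the 1.35 nt, the A bases of the tail 24.3%, and U, C and G bases the rest. In 8 of the 10 models of the U1 row the first downstream base is A. An A added at the mature end would count there as templated, and its part in this split was not tested. For RNVU1-31 the templated part made up 80.5% of 0.969 nt. In RNVU1-19 the values of the templated end and the tail, -1.44 and 1.44 nt, nearly cancel, on 20 reads.

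**Figure D2:**
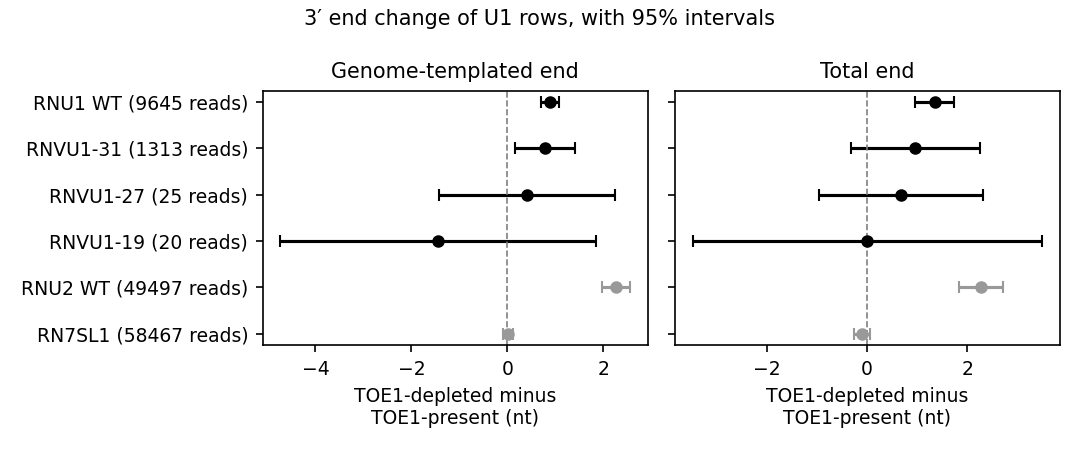
Change of the genome-templated (left) and total (right) 3′ end, TOE1-depleted minus TOE1-present (nt), with 95% intervals computed from difference and p; the U1 rows are black, U2 and 7SL grey. The interval of RNU1 WT lies above 0 in both panels, that of RNVU1-31 above 0 for the genome-templated end alone, and those of RNVU1-27 and RNVU1-19 span 0.

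U1 can be set beside U2, the other abundant Sm-class snRNA, and beside RN7SL1, a cytoplasmic particle's RNA that RNA polymerase III makes and that carries no Sm ring. By the authors' deposited table the genome-templated change was 2.26 nt for RNU2 WT (1.97 to 2.56 nt) and 0.0229 nt for RN7SL1 (-0.0831 to 0.129 nt). The interval of U1 overlaps neither of them; the differences themselves were not tested, for the reason given above. In the list of other Sm-class rows (U2, RNU4-1, RNU4-2, U5, U11, U12 and U4atac), 1 of 7 was called, U2, where 2.16% of all RNAs were, and 6 of 7 values lay above 0, with a median of 0.756 nt. That list does not hold the U2 copy RNU2-2P, added here after its value was seen. On 5603 reads its genome-templated end lay 7.47 nt further downstream (6.03 to 8.92 nt, adjusted p = 0.00953 from the authors' deposited p), above U2 and U1. For the total end RNU2-2P stood at 7.56 nt (6.07 to 9.04 nt, adjusted p = 0.0101 from the authors' deposited p). Another U2-named row outside the list, RNU2-59P with 1261 reads, was also added after its value was seen. Its genome-templated change was 0.0841 nt (-0.439 to 0.607 nt, adjusted p = 0.892 from the authors' deposited p), and it was not called. U1, U2 and RNU2-2P were the 3 RNAs called for either end. Below 0 among the 7, and named after its value was seen, was RNU5 WT at -2.35 nt on 106 reads (adjusted p = 0.189 from the authors' deposited p). Over all 139 RNAs the median was -0.102 nt, with 53 values above 0 and 86 below. U12, with 1088 reads, was the other row of that list past 1000 reads and stood at 0.758 nt (adjusted p = 0.358). Among the 88 RNAs with at least 100 reads and a p, the change of U1 ranked 4 from the top for the genome-templated and for the total end. The rows nearest to U1 in the pair of end changes were RNU11, RNU4-1 and SCARNA20, at distances of 0.132, 0.262 and 0.294 nt, out of the rows with at least 100 reads. RNU11 had 101 reads with 0.756 and 1.34 nt, RNU4-1 111 reads with 0.7003 and 1.17 nt, and SCARNA20 206 reads with 0.635 and 1.20 nt in the authors' deposited table; none of these was called.

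**Figure D3:**
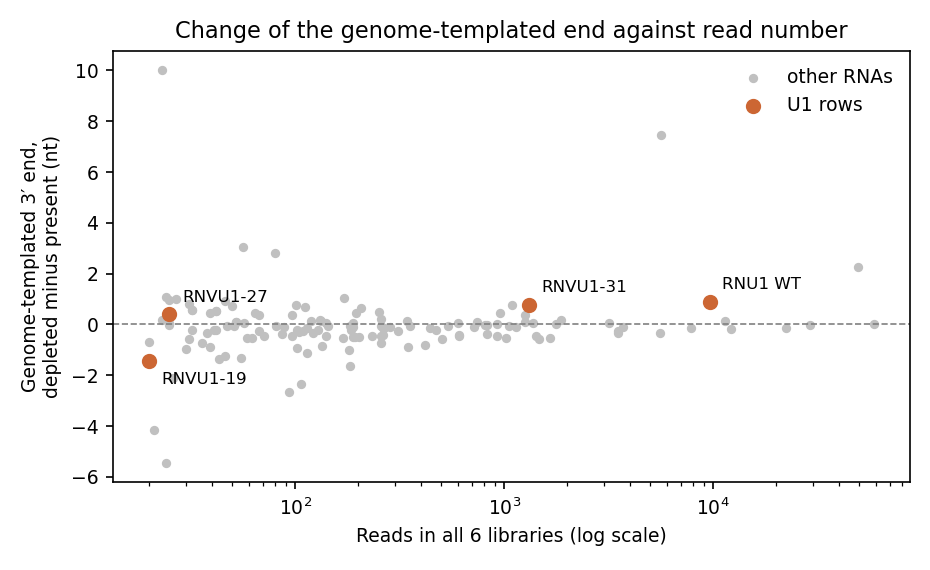
Change of the genome-templated 3′ end (nt, TOE1-depleted minus TOE1-present) against the reads of each RNA (log scale) for 139 RNAs; U1 rows are orange. RNU1 WT at 0.888 nt and RNVU1-31 at 0.780 nt lie above 0, the former ranking 4 from the top among RNAs with at least 100 reads, and the spread widens at low read number, where RNVU1-27 and RNVU1-19 lie.

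The untemplated tails of U1 were mostly A, and no tail measure of U1 or its variants passed after adjustment. In the authors' deposited table U1 carried 0.469 A bases per read with TOE1 and 0.797 without it, a difference of 0.328 nt (0.00211 to 0.654 nt, adjusted p = 0.392), with an unadjusted p of 0.0491. Of all RNAs with a p, 12.4% were under 0.05 unadjusted and 0% passed after adjustment. A bases were 61.3% of all tail bases with TOE1 and 64.9% without it. The U bases of the authors' deposited table stood at 0.0820 and 0.0919 nt per read, the C bases at 0.0763 and 0.176, and the G bases at 0.138 and 0.163. The interval of each of these differences includes 0. The columns that the header names A with a number were read as tails of that many added A, which the header does not spell out. By the authors' deposited table, 13.3% of U1 reads with TOE1 and 16.8% without it fell in the class of 1 added A. The class of 2 held 2.53% and 2.51%, and that of 3 or more 1.85% and 5.40%. The last difference, 3.55 percentage points (1.37 to 5.72 points), had an unadjusted p of 0.0106 by the authors' deposited table and an adjusted p of 0.227, so it was not called; 1.37% of the 73 RNAs tested were, and 8.22% had an unadjusted p under 0.05. The computed share with exactly 2 A was nearly the same in the 2 conditions, but it has no deposited p and was not tested.

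RNVU1-31 carried more tail bases per read than U1 in either condition; the difference between the rows was not tested. Its tails held 1.94 nt per read with TOE1 and 2.13 nt without it, against 0.765 and 1.23 nt for U1, and against medians of 0.926 and 0.832 nt over rows with at least 100 reads. Of the RNVU1-31 tail bases with TOE1, 50.6% were A, and the U, C and G bases together made 0.958 nt per read, against 0.296 nt in U1. Which bases count as untemplated depends on the copy a read was assigned to, and the downstream bases of RNVU1-31 differ from those of RNU1-1 after the first base; the part of this in the tail values was not tested. The class of 3 or more added A in the authors' deposited table held 5.05% of RNVU1-31 reads with TOE1 and 8.24% without it. The difference was 3.18 points (-0.528 to 6.89 points, adjusted p = 0.526 from the authors' deposited p). The class of exactly 1 A held 9.19% and 11.2% of RNVU1-31 reads, and that of exactly 2 A, computed as for U1, 3.41% and 2.49%.

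Across the table the values mostly had the other sign. The share of reads in the class of 1 or more added A, by the authors' deposited table, was lower in TOE1-depleted libraries in 99 of 128 RNAs. It was higher in 29, and the median difference over all 128 was -9.57 percentage points. U1 stood at 17.7% and 24.7% (difference 7.02 points, -5.01 to 19.04 points, adjusted p = 0.350) and RNVU1-31 at 17.6% and 21.97% (4.32 points, -8.90 to 17.5 points, adjusted p = 0.532). U1 ranked 4 from the top among the 86 RNAs with at least 100 reads, but its own difference did not pass, and whether it differs from the other RNAs was not tested. The AG11 adaptor was used in 2 of the 3 TOE1-depleted libraries, and with no tail value per library its part in these shares was not tested. By the authors' deposited table the class of 1 or more A held 48.1% of RNVU1-27 and 38.1% of RNVU1-19 reads with TOE1. Without it the class held 16.7% and 11.1%, with intervals of the difference from -119 to 55.9 and from -119 to 65.0 points. The class of 2 or more A held 0% of the reads of these 2 rows.

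**Figure D4:**
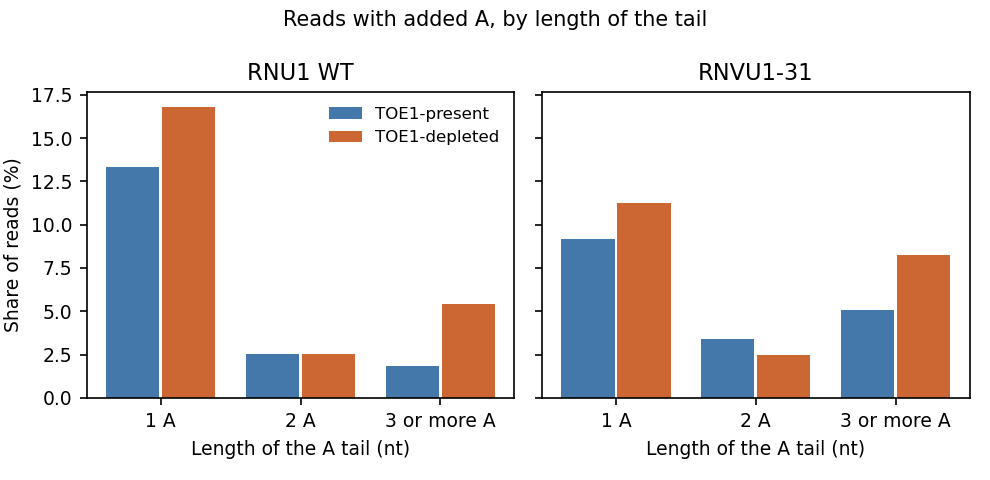
Share of reads (%) in the classes of 1, 2, and 3 or more added A for RNU1 WT and RNVU1-31, TOE1-present (blue) and TOE1-depleted (orange). Values are given per condition, so bars have no error bars, and the class of 2 A is computed from deposited shares. In RNU1 WT the class of 3 or more A stands at 1.85% and 5.40%, in RNVU1-31 at 5.05% and 8.24%, while the class of 2 A differs little or is lower in depleted cells.

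The other named tail classes held few U1 reads. They do not account for the U, C and G bases of U1 tails, which made 0.296 nt per read with TOE1 and 0.431 nt without it. In the authors' deposited table the class read as U tails held 0.651% of U1 reads with TOE1 and 0.555% without it. For RNVU1-31 it held 2.17% and 4.13% of reads. From the deposited p in the authors' deposited table, the adjusted p were 0.913 and 0.673. The column of the authors' deposited table named AU, which the header does not spell out, held 0.0308% of U1 reads with TOE1 and 0.244% without it (unadjusted p = 0.00508, adjusted p = 0.208) and was not called; 0 of 41 RNAs were (0%), and 2 had an unadjusted p under 0.05 (4.88%). By limma's moderated test the adjusted p of that value was 0.535. The class of 3 or more U held no U1 or variant read. Over the 13 tail measures, 0 values of the 4 rows passed after adjustment by the deposited p, and by limma's moderated test 0 passed as well. At an unadjusted deposited p under 0.05 there were 3, all of RNU1 WT: A bases per read, 3 or more A, and AU. Of all RNAs, 12.4%, 8.22% and 4.88% lay under 0.05 in those measures, and from 0% to 21.1% over the 13 measures.

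The level of U1 overlapped between the groups, while that of RNVU1-31 was lower in each TOE1-depleted library without passing the test. Read number was compared with edgeR on counts scaled by the trimmed mean of M-values (TMM), given as CPM, counts scaled to a common library size. U1 had 34202, 32704 and 30386 CPM in the TOE1-present libraries and 28616, 34395 and 31980 CPM in the TOE1-depleted ones. The groups overlap, and the means were 32431 ± 1922 and 31664 ± 2902 CPM (SD, n = 3 per group), which edgeR put at -0.03 ± 0.19 on the log2 scale (SE; adjusted p = 0.952). The interval of that change, -0.49 to 0.42, bounds what these libraries could show. In bulk RNA, fewer cells making an RNA and less of it per cell cannot be told apart. RNVU1-31 had 7473, 4866 and 5323 CPM with TOE1 and 3536, 3801 and 3044 CPM without it. Each TOE1-depleted library lay below each TOE1-present one, as for 14.9% of the 101 RNAs tested, and edgeR put the change at -0.77 ± 0.20 on the log2 scale (SE; adjusted p = 0.0508), just short of the threshold; 7.92% of the RNAs passed it. With the replicate block, whose pairing by number is uncertain, RNVU1-31 passed (edgeR adjusted p = 0.0119), as it did with DESeq2 (adjusted p = 0.00296). It did not in TOE1-depleted replicate 1 alone against the TOE1-present libraries, all with AG10 (log2 change -0.77, edgeR adjusted p = 0.286). RNVU1-27 and RNVU1-19 were too shallow to be tested and had means of 112 ± 88.7 and 84.7 ± 67.1 CPM with TOE1 and of 59.3 ± 12.2 and 54.4 ± 17.4 CPM without it (SD, n = 3 per group).

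The level of U1 depends on the scale. The most abundant row, RN7SL1, took 21.3%, 22.8% and 29.2% of all reads with TOE1 and 13.7%, 17.4% and 19.2% without it. Scaled by library totals in place of TMM, the median log2 change over the 101 RNAs moved from 0.08 to 0.63, the change of U1 to 0.53 and that of RNVU1-31 to -0.21, neither called. Relative to the median RNA, which a change of scale moves along with each row, U1 stood at -0.11 and RNVU1-31 at -0.85 with TMM. With AG10 libraries only these distances were -0.34 and -0.90, and with the adaptor as a covariate -0.28 and -0.84. As a share of all reads RNVU1-31 was 0.571%, 0.466% and 0.418% with TOE1 and 0.329%, 0.494% and 0.438% without it, where the groups overlap.

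The share of U1-family reads that fell on the variant needs no scaling between libraries. RNVU1-31 took 17.8%, 12.9% and 14.9% of the reads of the 4 rows in the TOE1-present libraries and 10.95%, 9.92% and 8.67% in the TOE1-depleted ones. All 3 depleted libraries lay below all 3 present ones. This rests on the same RNVU1-31 reads as the CPM above, where 14.9% of the 101 RNAs tested lay likewise. How often shares of other rows separate in this way was not counted. The means were 15.2% ± 2.44 and 9.85% ± 1.15 (SD, n = 3 per group), a difference of -5.34 percentage points. The 2-sided exact permutation test gave p = 0.1, the smallest that 3 against 3 libraries allow, so the design cannot pass the threshold for this value. The lowest TOE1-present library, replicate 2, had a Wilson 95% interval of 11.2% to 14.9%, and the highest TOE1-depleted library, replicate 1, had 9.73% to 12.3%, so these neighbours overlap within counting error. In the comparison held to the AG10 adaptor, which leaves TOE1-depleted replicate 1 alone, the share of all RNVU1 rows differed by -4.33 points, against -5.50 points in all libraries. RNVU1-27 took 0.283% ± 0.205 and 0.171% ± 0.0492 of the family's reads and RNVU1-19 0.211% ± 0.151 and 0.154% ± 0.0453 (SD, n = 3 per group), with exact permutation p of 0.5 and 0.9. Over the 4 shares compared, the adjusted p of RNVU1-31 was 0.2 (exact permutation test).

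**Figure D5:**
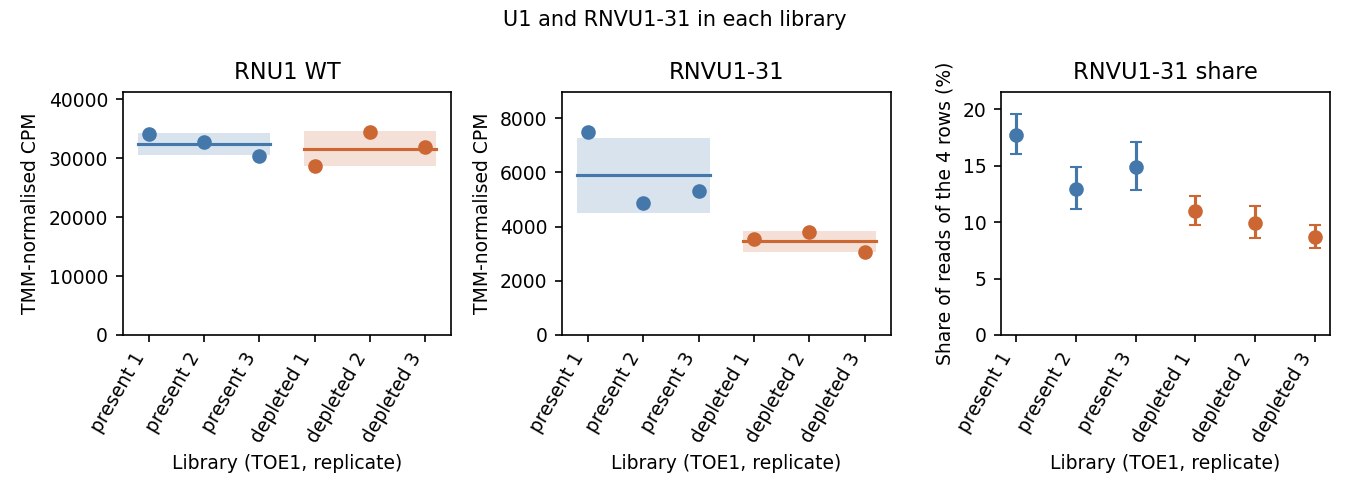
TMM-normalised CPM of RNU1 WT (left) and RNVU1-31 (middle) in each library, with group mean (line) and SD (band), and the share of U1-row reads on RNVU1-31 (right, %) with Wilson 95% intervals. RNU1 WT overlaps between the groups, while RNVU1-31 lies at 3044 to 3801 CPM in depleted and 4866 to 7473 CPM in present libraries, and its share at 8.67% to 10.95% against 12.9% to 17.8%.

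The rows whose library profile was most like that of U1 were AC078802.2, SNORA74D, an H/ACA snoRNA, and the U2 copy RNU2-2P. Their Pearson correlations of log2 CPM with RNU1 WT over the 6 libraries were 0.749, 0.683 and 0.625, the highest of 89 rows with at least 100 reads. RNVU1-31 was 10 in that order, at 0.361. All points share the libraries and their TMM factors, and the values are a description.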

How the data were processed

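Nascent RNA of 100 to 500 nt was sequenced from its 3′ end in 6 libraries. The authors deposited a table of 142 RNAs with raw read counts per library, and, per the file headers, end and tail values per condition, their differences, and p-values of a library-level t test and of a Kolmogorov-Smirnov test on pooled reads. Per the submitters' processing notes, STAR 2.7.8a and hg38 were used. The difference of the total end equalled that of the templated end plus the tail bases in 142 of 142 rows (tolerance 1e-06). The deposited condition values are means of library means.

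Ends and tails are given per condition only, so the deposited library-level p was used, adjusted by Benjamini-Hochberg over all RNAs with a p (threshold 0.05), and errors and 95% intervals were recovered from the difference and p. A p of 0.373901 was exactly repeated in 143 tail values. That t test gives it when 1 library alone holds the tail, which was not checked for each value. It does not hold for RNVU1-27, whose share in the class of exactly 1 A had this p at 48.1% with TOE1 and 16.7% without it. The alternative used limma 3.58.1. Counts were tested with edgeR 4.0.16 (quasi-likelihood, TMM, filterByExpr) in R 4.3.3, and with DESeq2 1.42.0 as an alternative. Shares of U1-family reads had Wilson 95% intervals, which cover counting error only, and a 2-sided exact permutation test. The recovered errors, limma's test on them and the main edgeR test were run on simulated data, with changes larger than those of U1. Smaller changes were not tried, and DESeq2, the block and adaptor fits, the Wilson intervals and the permutation test were not simulated. No count column lacked a sample.

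Same-numbered libraries share only a number in the labels. Their deviations from the group means correlated at 0.942, 0.531 and 0.883, each above the limit of 0.1 set for pairing, and the fit with the replicate number as a block is given on that ground. The highest correlation with a library of another number was -0.541 for pair 1 but 0.874 for pairs 2 and 3, above the 0.531 of pair 2, so the pairing by number is uncertain. Without 4 rows of gene models that had 0 reads in a library and at least 100 in another, the values were 0.0140, 0.0850 and 0.215. Only pair 3 then stayed above the limit of 0.1, so for pairs 1 and 2 the ground for the block rests on those 4 rows.

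All members were named whatever their values. U2 and 7SL were compared, as were the 3 rows of at least 100 reads nearest to U1 in end changes, the 3 nearest in library profile, and the rows of at least 1000 reads in a fixed list of Sm-class snRNAs, which does not hold the U2 copy RNU2-2P; its values were added after they were seen. Members and lists were chosen with earlier results of these data known. Sequences are those of hg38 at the GENCODE 44 models whose identifiers the table gives.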

Additional observations from a re-analysis of the deposited data

How the results depend on the processing

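For the genome-templated end 3 RNAs were called, and 13 with the Kolmogorov-Smirnov p on pooled reads; for the total end 3 were called, 24 with that p, and 0 at an adjusted p under 0.01 from the deposited p, where 11 had an unadjusted p under 0.05. RNVU1-31 was called for both ends only with the pooled-read p, and U1 lost its total-end call under limma (adjusted p = 0.0971). For abundance 8 RNAs were called by edgeR, 23 with library totals, 5 with no filter, 18 with the replicate block, 18 with DESeq2, 0 with AG10 libraries only, 0 with the adaptor as a covariate, and 0 to 2 with a library left out, where edgeR on all libraries had 28 at an unadjusted p under 0.05. The abundance change of U1 turned from -0.03 to 0.53 with library totals and to 0.0196 without TOE1-depleted replicate 1 (-0.114 to 0.0196 with a library left out), none called. RNVU1-31 stayed below 0 throughout and was called with the replicate block (adjusted p = 0.0119) and with DESeq2 (adjusted p = 0.00296); the block changed no other call of U1 or RNVU1-31. The RNVU1 share differed by -6.76 to -4.02 points with a library left out. End and tail values could not be refitted without a library or with the block, as they are given per condition. The causes were not tested.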
